A study of Gallus gallus with 7 samples.

Results

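In the ovary of 7 laying hens, 17 of 24356 genes had a higher level in each of 3 persistent hens than in any of 4 non-persistent hens, by a set margin. The members were chosen from the measured values themselves. Counts were divided by the library total and put on the usual CPM scale, genes that averaged 1 CPM or more over the 7 hens were kept (15481 genes), and the lowest persistent hen had to lie at least 25% above the highest non-persistent hen. All values of the members that set one group against the other are therefore a description of what was chosen, with no test.

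The study asked which ovarian genes go with a high rate of lay at an advanced age, by RNA sequencing. The hens were caged Single-comb White Leghorns (Shaver), an egg-laying breed, from a flock of 40 kept on 16 h of light and 8 h of dark, with free feed and water, and with eggs recorded each day over weeks 16 to 76. Persistent laying hens (PL, n = 3, hens 8, 9 and 20 by their sample number) came from the upper quartile of laying and had a laying rate of 100%, and non-persistent laying hens (NPL, n = 4, hens 10, 12, 13 and 42) came from the lower quartile and had a rate of at most 82%. All were of the same breed and were kept to 76 weeks, each gave a single library, and the labels name no treatment or genotype.

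The tissue was about 10 mg of the body of the ovary after follicles larger than 1 mm had been removed. In a laying hen, a few large follicles take up yolk in a size order and are shed in turn, each replaced from a pool of small follicles embedded in the ovarian stroma. The stripped ovarian body therefore holds stroma, vessels, nerves, blood and immune cells together with the smallest follicles, whose oocytes are wrapped in granulosa cells and, later, in steroid-producing theca cells. In such a bulk sample, fewer cells of a type and less RNA per cell cannot be told apart.

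The genes are known here by Ensembl ID only, since the sources used here pair none of these IDs with a name. What the members do, where they lie and how the tissue's marker genes behave were therefore not analysed here. The members are numbered from 1 to 17 by the ratio of the lowest PL to the highest NPL level, largest first, and only the first 2 are given by ID.

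The libraries held between 21535850 and 27803563 counts, so that 1 count was worth between 0.0360 and 0.0464 CPM. Hens 8 and 13 lay on the other group's side of the largest axis of expression. On this first principal component, which carried 40.1% of the variance, the scores were -34.8, 55.3 and 27.5 in PL hens 8, 9 and 20 and -10.4, -31.9, 27.6 and -33.3 in NPL hens 10, 12, 13 and 42.

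The 17 members were 0.110% of the 15481 genes of at least 1 CPM. Without a margin, 225 genes had every PL hen above every NPL hen, which was 1.45% of them. The opposite rule, with the lowest NPL hen at least 25% above the highest PL hen, was met by 26 genes. Another 2 genes meet the rule as written only because a level of 0 is not below a multiple of 0. They were set aside, since a hen with 0 counts is not higher than another with 0. The first had 1, 0 and 236 counts in PL hens 8, 9 and 20, the second had 0, 1 and 347, and both had 0 counts in all 4 NPL hens.

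The margin was small for most members. The ratio ran from 1.98 in member 1 to 1.26 in member 17, with a median of 1.41, and 7 members exceeded 1.5. The 2 members just inside the threshold had ratios of 1.26 and 1.29, and the 2 genes just outside had ratios of 1.246 and 1.239.

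**Figure D1:**
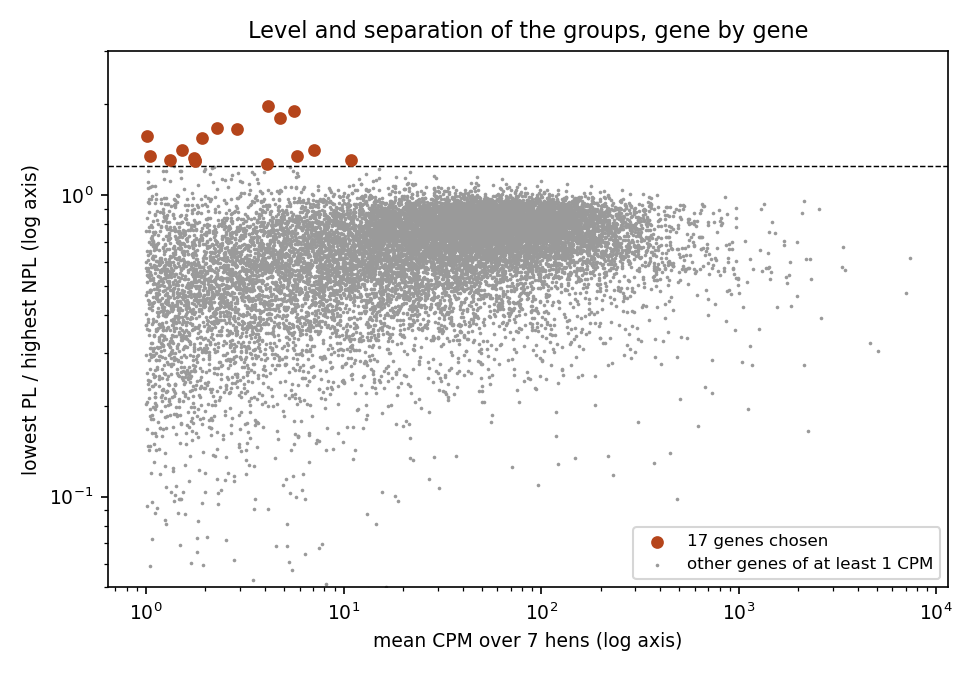
Mean CPM over 7 hens (x, log axis) against the ratio of the lowest PL to the highest NPL CPM (y, log axis) for genes of at least 1 CPM, with the 17 members as large points and the margin of 25% as a dashed line. The members lie between 1.01 and 11.0 CPM, at the low end of the range, and genes whose ratio is under 0.05 or undefined are not drawn.

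The members were genes of low abundance. Their mean level over the 7 hens was between 1.01 and 11.0 CPM with a median of 2.30 CPM, whereas the median of all genes of at least 1 CPM was 29.3 CPM. Of the 17, 16 lay below the lower quartile of 7.91 CPM. The mean level is part of the rule, and counting error makes a fixed ratio easier to meet at low counts. Nothing is therefore read from this low level. Part of the set reached the minimum of 1 CPM through the PL hens: 9 members had a mean of at least 1 CPM in the NPL hens and 8 did not. Without hen 20, 7 members would have had a mean under 1 CPM.

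ENSGALG00000049250 (member 1) had 4.78, 9.21 and 8.61 CPM in PL hens 8, 9 and 20, against 1.65, 1.49, 2.42 and 1.02 CPM in NPL hens 10, 12, 13 and 42. Its lowest PL hen was hen 8 and its highest NPL hen was hen 13, and the gap between them was the widest of the set as a ratio. The mean was 7.53 ± 2.40 CPM (SD, n = 3) in PL hens and 1.65 ± 0.581 CPM (SD, n = 4) in NPL hens, a 4.57-fold difference of means.

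ENSGALG00000048197 (member 2) had 7.83, 11.5 and 9.64 CPM in PL hens 8, 9 and 20, against 2.16, 2.95, 4.13 and 1.11 CPM in NPL hens 10, 12, 13 and 42. The same hens as in member 1 bounded the gap, hen 8 from above and hen 13 from below. Its difference of means was 3.74-fold, and the NPL hens spread more widely (coefficient of variation, SD over mean, 0.492) than the PL hens (0.192).

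**Figure D2:**
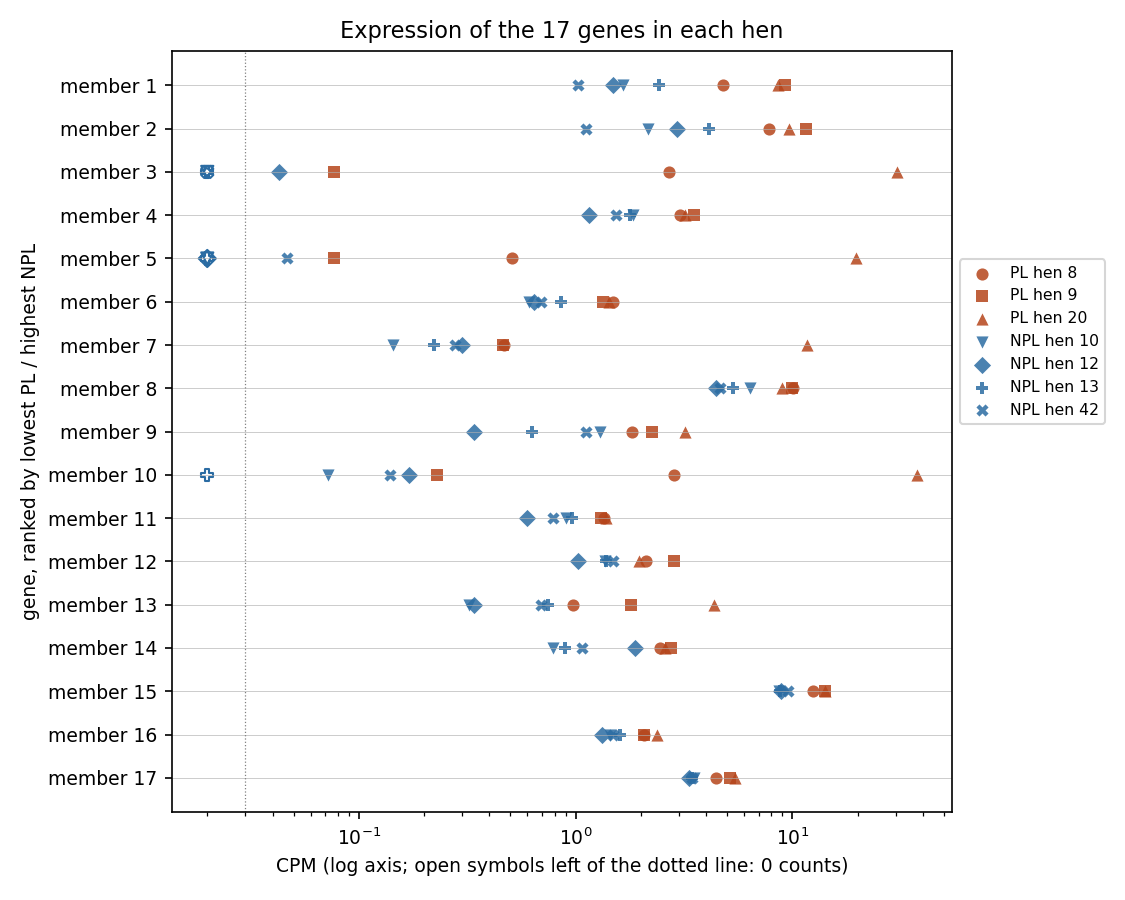
CPM (x, log axis) of each of the 17 genes (rows) in the 3 PL hens and 4 NPL hens, 1 symbol per hen. Members 3, 5, 7 and 10 spread over more than a factor of 10 among the PL hens, with hen 20 far to the right, while most other members have narrow groups a short distance apart.

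A set of 4 members, 3, 5, 7 and 10, was carried by hen 20. In these, hen 20 held between 91.6% and 97.1% of the summed PL level, whereas in the other 13 members its share was at most 61.0%. Member 3 had 64, 2 and 679 counts in PL hens 8, 9 and 20, against 0, 1, 0 and 0 counts in NPL hens 10, 12, 13 and 42. In CPM these were 2.71, 0.0767 and 30.4 in the PL hens, and 0.0427 in the NPL hen with a count. Hens 20 and 8 stood clear of the NPL hens, but the place of hen 9 above them rested on 2 counts against 1.

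Member 5 had 12, 2 and 437 counts in PL hens 8, 9 and 20, against 0, 0, 0 and 1 counts in NPL hens 10, 12, 13 and 42. Member 10, with the highest level of any member in any hen, had 67, 6 and 835 counts in the PL hens (37.4 CPM in hen 20), against 2, 4, 0 and 3 counts in the NPL hens in the same order. In both, hen 9 lay within a few counts of the NPL hens. Member 7 had 11, 12 and 260 counts in PL hens 8, 9 and 20, against 4, 7, 6 and 6 counts in the NPL hens, so that hens 8 and 9 were alike and both were close to the NPL hens.

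That hen 20 was the highest follows from how these 4 were set apart. Below it, hen 8 lay well above hen 9 in members 3, 5 and 10, and these hens lay at 0.465 and 0.460 CPM in member 7. The level of hen 8 was between 2.59% and 8.90% of that of hen 20. Across the whole table, 37 genes of at least 1 CPM were at least 4-fold higher in hen 20 than in every other hen, with the other hens set to no less than 3 counts. The 4 members are among them, which their share in hen 20 nearly fixes, and make up 10.8% of the 37 genes and 23.5% of the members. In 20 of the 37, hen 8 was above the remaining 5 hens. Among the 33 of them that are not members it was so in 16, or 48.5%, against 12.4% of all genes of at least 1 CPM. The cut at 4-fold and the look at hen 8 were chosen after the values had been seen.

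The other 13 members had modest and more even differences. The difference of means was between 1.46-fold and 4.57-fold, and it was at least 2-fold in 7 of the 13, against 0.782% of all genes of at least 1 CPM, a contrast on which the members were chosen. Member 8 had 10.1, 9.94 and 9.01 CPM in PL hens 8, 9 and 20, against 6.40, 4.44, 5.33 and 4.64 CPM in NPL hens 10, 12, 13 and 42. Its PL hens were close to each other and hen 10 was the highest NPL hen.

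Member 15, the most abundant of the set on average, had 12.5, 14.2 and 14.1 CPM in PL hens 8, 9 and 20, against 8.67, 8.88, 8.79 and 9.57 CPM in NPL hens 10, 12, 13 and 42. Both groups were narrow, with means of 13.6 ± 0.955 CPM (SD, n = 3) in PL hens and 8.98 ± 0.403 CPM (SD, n = 4) in NPL hens, 1.51-fold apart. Member 17 had the smallest difference of means, 1.46-fold, with 4.44, 5.18 and 5.42 CPM in PL hens 8, 9 and 20, against 3.52, 3.33, 3.46 and 3.44 CPM in NPL hens 10, 12, 13 and 42. The NPL hens of member 17 were the most alike of any member, with a coefficient of variation of 0.0237.

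Member 4 had 3.05, 3.53 and 3.18 CPM in PL hens 8, 9 and 20, against 1.83, 1.15, 1.79 and 1.53 CPM in NPL hens 10, 12, 13 and 42. Member 14 had 2.45, 2.76 and 2.60 CPM in the PL hens, against 0.791, 1.88, 0.894 and 1.07 CPM in the NPL hens in the same order. In member 14 a single NPL hen, hen 12, lay near the PL hens, and the other NPL hens were far below. Member 12 had 2.12, 2.84 and 1.97 CPM in the PL hens, against 1.37, 1.02, 1.38 and 1.49 CPM in the NPL hens, with hens 20 and 42 at the edges of the gap.

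Members 9 and 13 were graded among the PL hens, with hen 20 above hen 9 and hen 9 above hen 8. Member 9 had 1.82, 2.26 and 3.18 CPM in PL hens 8, 9 and 20, against 1.29, 0.341, 0.633 and 1.11 CPM in NPL hens 10, 12, 13 and 42. Member 13 had 0.973, 1.80 and 4.35 CPM in the PL hens, against 0.324, 0.341, 0.745 and 0.697 CPM in the NPL hens. In both, hen 8 was the PL hen nearest to the NPL hens.

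Members 6, 11 and 16 were low, and even among the PL hens. Member 6 had 1.48, 1.34 and 1.43 CPM in PL hens 8, 9 and 20, against 0.611, 0.640, 0.857 and 0.697 CPM in NPL hens 10, 12, 13 and 42. Member 11 had 1.35, 1.30 and 1.39 CPM in the PL hens, against 0.899, 0.598, 0.968 and 0.789 CPM in the NPL hens. Member 16 had 2.07, 2.07 and 2.38 CPM in the PL hens, against 1.44, 1.32, 1.60 and 1.49 CPM in the NPL hens. In all 3 the PL hens were close to each other, and hen 13 was the highest NPL hen. The coefficient of variation over NPL hens was 0.156, 0.199 and 0.0787 in members 6, 11 and 16.

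The counting intervals of the hens at the edges of the gap overlapped for most members. Exact 95% Poisson intervals of the lowest PL hen and of the highest NPL hen, which cover counting error only, were apart in 4 members (1, 2, 8 and 15) and overlapped in 13. Overlap of separate intervals does not measure the error of the gap itself. In member 4 the intervals overlapped only between 2.38 and 2.41 CPM. For member 6, the interval was 0.935 to 1.87 CPM in PL hen 9 (35 counts) and 0.543 to 1.29 CPM in NPL hen 13 (23 counts). For member 15, it was 11.1 to 14.0 CPM in PL hen 8 (295 counts) and 8.30 to 11.0 CPM in NPL hen 42 (206 counts), which left the intervals just apart. The 2 hens of each pair were picked as the extremes of their groups.

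**Figure D3:**
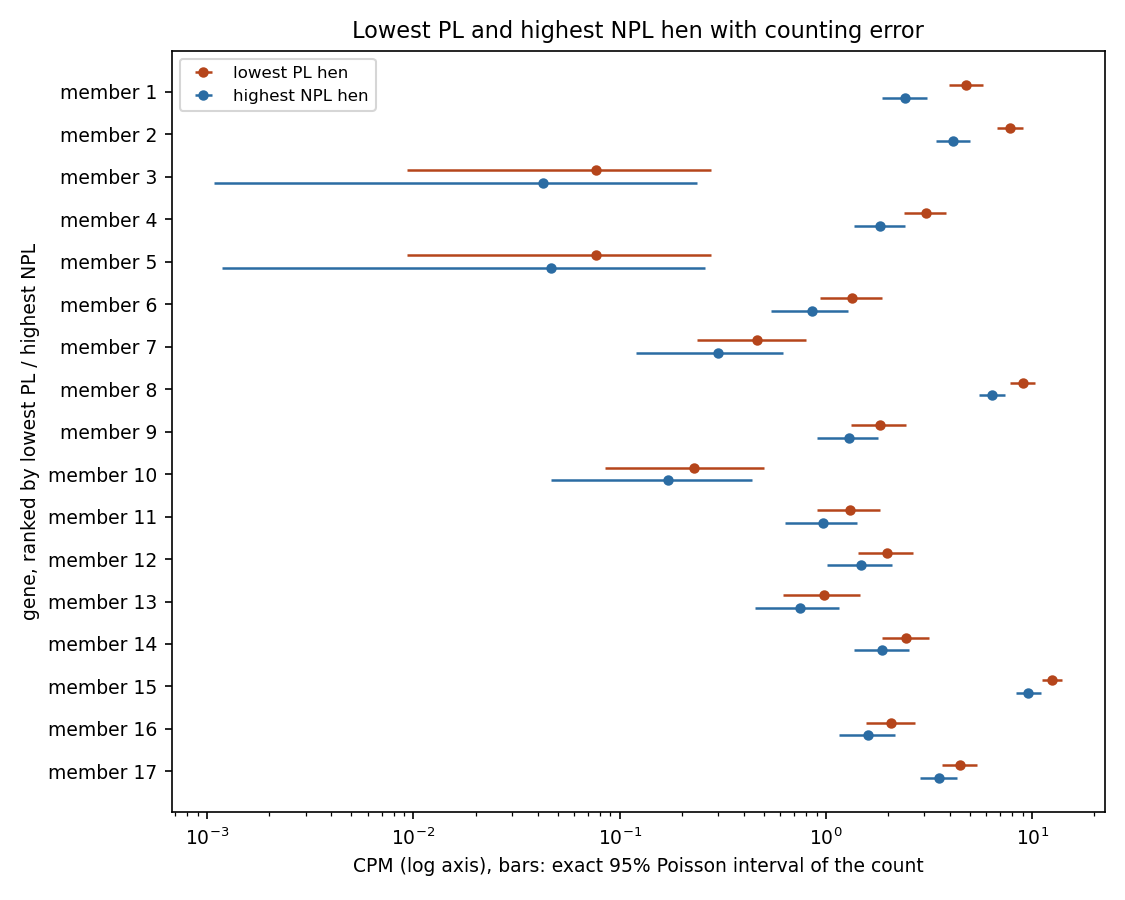
CPM (x, log axis) of the lowest PL hen and the highest NPL hen for each of the 17 genes (rows), with bars for the exact 95% Poisson interval of the count. The bars are apart in members 1, 2, 8 and 15 and overlap in the other 13, most widely in members 3, 5 and 10.

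Among the 13 members not led by hen 20, the coefficient of variation was below the Poisson value in 6 members over the PL hens and in 6 members over the NPL hens. Among the 4613 genes in the members' range of mean level, this was so for 11.9% over PL hens and 7.87% over NPL hens. In member 11 the coefficient of variation over PL hens was 0.0316, where counting alone gives 0.176. The rule favours genes whose groups happen to be narrow, so nothing is read from this closeness.

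Added up over the 17 members, the level was 61.5, 68.8 and 166 CPM in PL hens 8, 9 and 20, against 31.2, 28.9, 33.2 and 29.1 CPM in NPL hens 10, 12, 13 and 42. The excess of hen 20 came from the 4 members it led, which summed to 6.52, 0.844 and 99.1 CPM in the PL hens, against 0.216, 0.512, 0.223 and 0.464 CPM in the NPL hens. The other 13 members summed to 55.0, 67.9 and 67.3 CPM in PL hens 8, 9 and 20, against 31.0, 28.4, 33.0 and 28.6 CPM in NPL hens 10, 12, 13 and 42. Without the 4, the sum was 63.4 ± 7.31 CPM (SD, n = 3) in PL hens, against 30.2 ± 2.17 CPM (SD, n = 4) in NPL hens. The 4 were set apart by the share of hen 20, which favours closer PL sums in the rest, so nothing is read from that closeness.

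**Figure D4:**
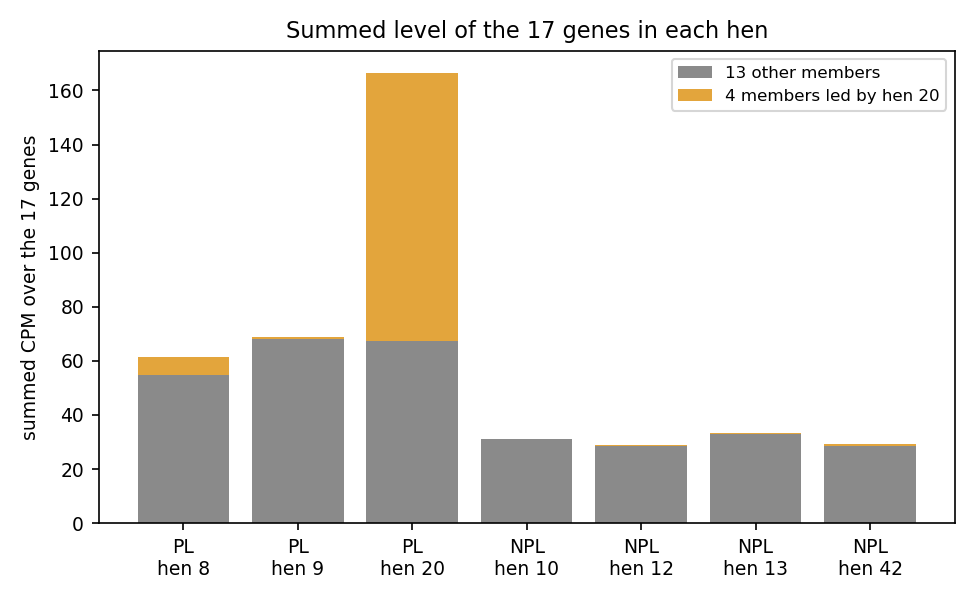
Summed CPM (y) of the 17 genes in each hen, split into the 4 members led by hen 20 and the other 13. The 13 stand at 55.0 to 67.9 CPM in the PL hens and 28.4 to 33.0 CPM in the NPL hens, and the 4 add 99.1 CPM in hen 20 and at most 6.52 CPM in any other hen.

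The order of the hens within a group was left free by the rule, but not by setting apart the members led by hen 20. Among the 13 members not led by hen 20, hen 8 was the lowest PL hen in 8, where it was lowest in 48.3% of all genes of at least 1 CPM. Hen 9 was the highest PL hen in 6 and hen 20 in 5, against 41.3% and 25.0% of all genes. In all 4 members set apart, hen 20 was the highest PL hen and hen 9 the lowest. Over all members, hen 8 was the lowest PL hen in 8 and hen 9 in 7, and hen 20 was the highest in 9. The PL counts among the 13 thus depend in part on that split, and nothing is read from them. On the NPL side, hens 10, 12, 13 and 42 were lowest in 4, 7, 0 and 2 of the 13. The shares of all genes were 11.4%, 30.7%, 29.2% and 28.6% in that order. The same hens were highest in 4, 1, 6 and 2 of the 13, against 16.3%, 22.7%, 42.6% and 18.4% of all genes. These NPL counts are small and were not tested.

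Along the largest axis of expression, the 14 members with a score had Pearson correlations with the first component between 0.18 and 0.67 across the 7 hens. The rule leaves little room for a high value, since hens 8 and 13 lie on the other group's side of the component, and the genes and the component share their libraries, so nothing is read from these values.

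The rule was also applied to 6 hens at a time, and the genes so chosen were read in the hen not used. This reading is only partly independent of the choice, because the hen left out is set against an edge of the other group that was itself used in choosing. That can raise the share above that of all genes even for a hen that does not follow its group. How much it does so was not tested. The shares of all genes are therefore given for scale and not as the value expected without a difference. Without PL hen 8 the rule chose 207 genes, and hen 8 was above every NPL hen in 45 of them, or 21.7%, against 13.9% of all genes of at least 1 CPM. Hen 8 was below every NPL hen in 37 of the 207, or 17.9%, against 24.6% of all genes.

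Without PL hen 9 the rule chose 70 genes, and hen 9 was in order in 27 of them, or 38.6%, against 33.6% of all genes. Without PL hen 20 it chose 35 genes, and hen 20 was in order in 18, or 51.4%, against 24.5% of all genes. Hen 9 was below every NPL hen in 10 of its 70 genes (14.3%, against 29.5% of all genes). Hen 20 was so in 2 of its 35 (5.71%, against 19.8%).

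For an NPL hen, in order means below every PL hen. Hen 10 was so in 26 of 41 genes chosen without it (63.4%, against 13.5% of all genes), and hen 12 in 21 of 24 (87.5%, against 25.1%). Hen 13 was so in 33 of 56 (58.9%, against 13.3%), and hen 42 in 24 of 33 (72.7%, against 25.0%). The reverse order, above every PL hen, was seen for hen 10 in 5 of 41 (12.2%, against 19.1% of all genes). For hen 12 it was seen in 1 of 24 (4.17%, against 22.6%). For hens 13 and 42 it was seen in 8 of 56 (14.3%, against 20.5%) and 0 of 33 (0%, against 20.3%). These counts are a description and carry no p-value.

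**Figure D5:**
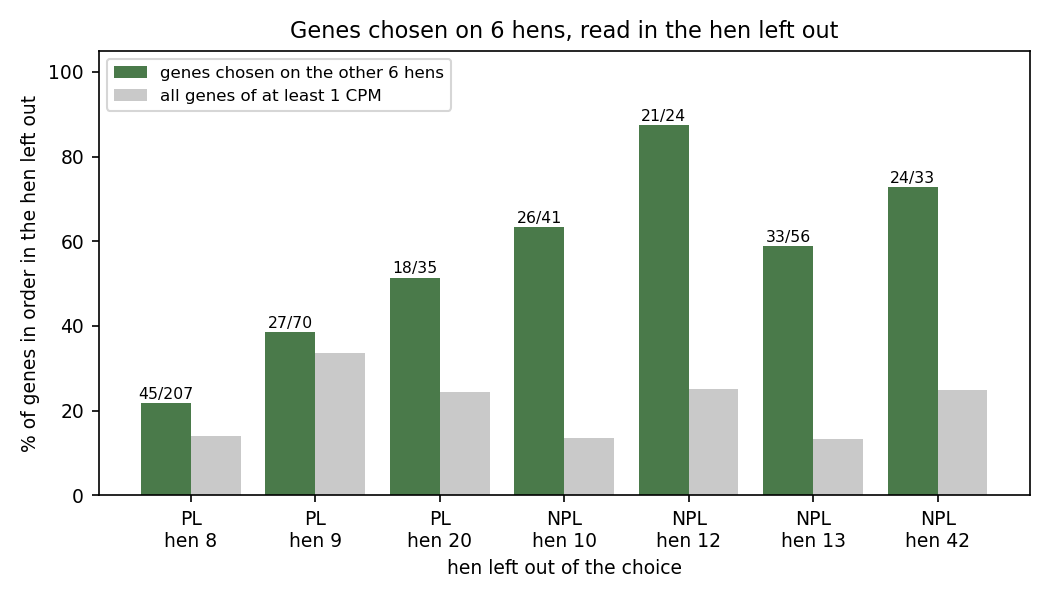
Share of genes (y, percent) that keep the order of the groups in the hen left out (x), for genes chosen on the other 6 hens and for all genes of at least 1 CPM, with counts above the bars. The share among chosen genes was 21.7% to 51.4% for the PL hens and 58.9% to 87.5% for the NPL hens.

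Tests across all genes read the same contrast in the same hens and so give the members no independent reading. edgeR's quasi-likelihood test kept 14 of the 17. Its filter on low counts left out members 3, 5 and 10, which had few counts in every hen but hens 20 and 8. Of the 14, the test called 0 at an adjusted p under 0.05, against 0% of 17051 genes called higher in PL hens. The smallest adjusted p of any gene by this test was 0.886. At an unadjusted p under 0.05 it gave 13 of the 14, against 1.58% of all genes tested, counted in the higher direction alone. The fitted log2 differences of the 14 were between 0.53 and 4.09. Their standard errors, derived from the log2 difference and the test's F statistic, were between 0.15 and 1.15. DESeq2 called 5 members (1, 2, 3, 8 and 10) of the 15 to which it gave an adjusted p. Of the 19348 genes with an adjusted p from DESeq2, it called 0.0362% higher in PL hens. With limma voom, 0 of 14 members were called, against 0% of its genes called higher in PL hens. At an unadjusted p under 0.05 limma voom gave 14 of 14, against 14.1% of its genes, again in the higher direction alone. Members 3 and 10 are among those led by hen 20.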

How the data were processed

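The authors deposited raw read counts, whole numbers with no normalization, for 24356 Ensembl gene IDs in 7 libraries. Per the labels' protocols, ovarian RNA was taken up in Trizol, cleaned with a DNase step and prepared for sequencing with the NEBNext Ultra II kit. Trim Galore and the build galGal6 are named per the submitters' processing notes. The sources used here do not give the aligner, the counter or the strand setting, which leaves overlapping and antisense genes uncertain. Columns were tied to hens by the labels. Library totals were 21535850 to 27803563.

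CPM was the count over the column total. The members and the tests were chosen with earlier results of these data known. Of the rule for named genes only its case without names applied: the 2 IDs of largest ratio are printed. The reference table used here holds an Ensembl ID for 0 of 25635 genes, so planned gene lists, marker lists, promoter motifs and sequences were not analysed here. edgeR 4.0.16 (filterByExpr, TMM, robust quasi-likelihood fit, Benjamini-Hochberg adjustment), DESeq2 1.42.0 and limma 3.58.1 were run in R 4.3.3 on all genes. They were checked on simulated counts in which 200 genes were changed 4-fold up or down, at levels that most members do not reach. That check does not cover differences as small, or levels as low, as those of most members. The first component used log2 CPM with a prior count of 2. Each hen is a separate animal with a single library, so differences of sampling and preparation are part of the spread.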

Additional observations from a re-analysis of the deposited data

Results flagged for a closer look

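Dixon's ratio was computed in the 4 NPL hens for each of the 17 members and for 3 summed levels, and marked 2 of these 20 values. Chance marks about 1 in 20 of continuous values, a rate that does not hold for counts of 0 and 1. The group of 3 PL hens was not checked. For member 3, NPL hen 12 stood apart at 0.0427 CPM, and for member 5, NPL hen 42 stood apart at 0.0464 CPM. Each is a single count where the other 3 NPL hens had 0, which by itself puts Dixon's ratio at its highest possible value. Nothing is read from these 2 marks.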

How the results depend on the processing

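The number of genes chosen depends on the settings of the rule. It was 17 as set, 24 on CPM scaled by TMM factors or on DESeq2 size factors, each with all 17 among them, 225 with no margin, 7 at a ratio of at least 1.5 and 0 at a ratio of at least 2, 39 with a minimum mean of 0.1 CPM and 4 with a minimum of 5 CPM. With 1 hen left out it was between 24 (without NPL hen 12) and 207 (without PL hen 8). Leaving out hen 9 gave 70, and hens 20, 10, 13 and 42 gave 35, 41, 56 and 33 in that order. A rule on fewer hens is easier to meet. With a hen left out, members were lost only through the minimum mean: 2 each when hen 8 or hen 9 was left out and 7 when hen 20 was. After the data were seen, 0 against 0 was also counted (19 genes) and the 4 members led by hen 20 were left out (13 genes). edgeR called 0 genes higher and 0 lower in PL hens with every scaling, filter, covariate and hen left out that was run. In a single run each on all 7 hens, limma voom called 0 higher and 0 lower, and DESeq2 called 7 higher and 4 lower. The fitted log2 differences of 14 members had the same sign in all 182 values under 13 alternatives, which the choice of non-overlapping genes favours. Of these, 3 moved by more than the spread between hens: member 7 was 0.97 without hen 20, against 4.09 with it, and by limma voom member 8 was 0.68 and member 13 was 2.94. No paired analysis was possible because the 2 groups are different hens and the labels give no pairing between them. The low counts of the members limit every reading here.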
